A study of Mus musculus with 9 samples.

Results

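The genes described here are those encoded by mitochondrial DNA (mtDNA), chosen as every gene that the count table places on chromosome MT: 37 of the 55487 genes in the table. They comprise 13 protein-coding genes, 2 ribosomal RNA genes and 22 transfer RNA genes, and 31 of them (13, 2 and 16) had enough counts to be tested. The study sequenced polyA-selected RNA of mouse gastrocnemius, a fast-twitch calf muscle, at the transition from disuse to renewed use. All mice were wild-type and labelled C57BL/6 (C57BL/6J in the study's text), and their age is not given in the sources used here. The Control group (4 libraries) had normal cage activity. The Unloading group (2 libraries) had 10 days of hindlimb unloading, in which the tail is suspended so that the hindlimbs bear no weight. The Reloading group (3 libraries) was taken 1 day after return to normal cage activity, following the same 10 days of unloading. The labels do not say that the libraries of a group came from separate mice, so the p-values measure only the spread between these libraries.

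Mitochondrial DNA is a small circle present in many copies per cell. Both of its strands are transcribed into long precursors, in which most protein-coding and ribosomal RNA genes are separated by transfer RNA genes. Cutting the transfer RNAs out frees the neighbouring RNAs, and most mitochondrial mRNAs then receive a short poly(A) tail. Its proteins are subunits of the respiratory complexes I, III and IV and of the ATP synthase (complex V), which they build together with a larger number of subunits imported from the cytosol. Its ribosomal and transfer RNAs serve the translation of these mRNAs inside the organelle. Contracting muscle depends on this system for ATP, and its output is known to follow muscle use.

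The libraries held 9252443 to 19612101 counts in genes. Muscle fibre markers (8 of 8 detected) summed to 135309 to 148450 normalised counts per 1e+06 counts (CPM) in Control, 133601 to 140195 in Unloading and 95898 to 107856 in Reloading. Macrophage markers (6 of 6 detected) summed to 48.8 to 59.8 CPM in Control, 48.2 to 50.2 in Unloading and 112 to 126 in Reloading, and the 4 endothelial and 3 fibroblast markers were likewise highest on average in Reloading, at 239 and 387 CPM. Of the 2 brown fat markers, Ucp1, which defines that mitochondria-rich tissue, had 0 counts in all 9 libraries. The other, Cidea, had 64 counts in total, and the 2 together averaged 0.714 CPM in Control, 0.470 in Unloading and 0.367 in Reloading. Control 2 and Reloading 1 held skin transcripts, where Krt2 reached 1086 and 502 counts beside 0 to 3 in the rest, so counts of calls were repeated without both. In whole-tissue RNA fewer mitochondria, fewer fibres and less RNA per mitochondrion cannot be told apart, and the part of these other cell types in the results below was not tested.

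The measurement itself depends on the sequence of each gene, because the counting command in the file header carries no option to count reads that fit several places or touch more than 1 gene, and such reads are dropped by default. That command counts read pairs, whereas the methods describe single reads of 50 bases, and which applies was not settled here. A stretch of mouse mtDNA from the end of mt-Co1 through part of mt-Nd4 has a nuclear copy on chromosome 1, where 7 annotated genes lie at chr1:24611535-24616197 on the minus strand (GRCm38). Their matching parts run from MT:6390 to MT:11042. By position the copy spans 11 mitochondrial genes, of which 6 are protein-coding (mt-Co2, mt-Atp8, mt-Atp6, mt-Co3, mt-Nd3 and mt-Nd4l). All of these but mt-Atp8 match it over all or nearly all of their length, and mt-Atp8 is placed in it by position only. The first 30 annotated bases of the copy of mt-Co1, the gene of the catalytic subunit of cytochrome c oxidase, show how the match to this copy begins. They start before the matching part, and are given 5′ to 3′ in the reading direction of mt-Co1 with differing bases in capitals.
mt-Co1, MT:6381-6410, plus strand: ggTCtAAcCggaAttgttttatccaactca
Gm29216, chr1:24616168-24616197, minus strand: ggATtGGcAggaTttgttttatccaactca
Numbered from 1 at the first base of mt-Co1, the differences are T1056A, C1057T, A1059G, A1060G, C1062A and A1066T. Across the 492 bases compared these were the only 6 mismatches, so all bases of mt-Co1 after the last of them were identical in the nuclear copy. Of the 50-base windows of each gene, 28.7% in mt-Co1, 62.2% in mt-Nd4 and 98.0 to 99.9% in mt-Co2, mt-Atp6, mt-Co3, mt-Nd3 and mt-Nd4l also occurred in the annotated copies on chromosome 1. Over all annotated nuclear transcripts the share was 51.1% in mt-Co1, 8.19% in mt-Nd2, 7.61% in mt-Nd5 and 1.04% in mt-Rnr2, so these genes also share sequence with nuclear genes other than the 7 copies. It was 0% in mt-Nd1, mt-Nd6, mt-Cytb and mt-Rnr1. mt-Atp8 has no annotated copy. On mtDNA it lies after mt-Co2 and overlaps the start of mt-Atp6 by 43 bases. The copies of these 2 neighbours are 233 bases apart, as are the matching parts of the neighbours on mtDNA. The sequence between the copies was not compared. The other 5 protein-coding genes (mt-Nd1, mt-Nd2, mt-Nd5, mt-Nd6 and mt-Cytb) lie outside the block.

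Gene ends matter too, since selection for poly(A) came before sequencing. In 3 of the 13 protein-coding genes (mt-Co3, mt-Nd4 and mt-Cytb) the DNA holds only the first letter of the stop codon, and the poly(A) tail added to the RNA supplies the rest. The last 30 bases of these 3, with the stop codon bases that are encoded in capitals, are set beside those of mt-Co1 and mt-Nd6, which carry a full stop codon.
mt-Co3, MT:9361-9390, plus strand: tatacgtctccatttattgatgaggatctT
mt-Nd4, MT:11515-11544, plus strand: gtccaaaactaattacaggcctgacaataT
mt-Cytb, MT:15259-15288, plus strand: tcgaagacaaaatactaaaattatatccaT
mt-Co1, MT:6843-6872, plus strand: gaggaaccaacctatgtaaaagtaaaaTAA
mt-Nd6, MT:13552-13581, minus strand: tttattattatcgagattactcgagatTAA
mt-Nd6 is the only protein-coding gene read from the minus strand, and its mRNA is known for lacking a stable poly(A) tail. Counting took no account of strand, so reads of mt-Nd6 and of the 8 minus-strand transfer RNA genes cannot be told from RNA of the opposite strand.

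Mitochondrial mRNA made up a smaller share of all counts in Reloading than in either other group. It took 10.1%, 9.41%, 9.16% and 10.4% of counts in the Control libraries, 9.49% and 9.98% in Unloading, and 6.40%, 6.64% and 6.37% in Reloading. The Reloading libraries thus lay below all 6 others, whereas the Unloading libraries lay within the Control range. The means were 9.78% ± 0.585 (SD, n = 4), 9.73% ± 0.350 (n = 2) and 6.47% ± 0.147 (n = 3), a log2 ratio of -0.59 for Reloading against Unloading and -0.01 for Unloading against Control. These shares carry no test.

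Ribosomal RNA followed another course, with a step down already in Unloading. Its share was 0.157%, 0.140%, 0.183% and 0.183% in Control, 0.112% and 0.128% in Unloading, and 0.0923%, 0.104% and 0.109% in Reloading. No 2 groups overlapped, and the log2 ratio was -0.47 in Unloading against Control and -0.24 in Reloading against Unloading. Ribosomal RNA carries little poly(A), so these shares are of what passed the selection and not of the ribosomal RNA in the muscle.

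Transfer RNA genes had the smallest share and, relative to Control, the lowest ratio in Reloading. They took 0.0264%, 0.0188%, 0.0191% and 0.0250% of counts in Control, 0.0154% and 0.0180% in Unloading, and 0.0101%, 0.00929% and 0.00614% in Reloading. The 3 groups again did not overlap. The log2 ratio of the mean shares was -0.41 for Unloading against Control, and in Reloading it was -0.97 against Unloading and -1.39 against Control. Mature transfer RNAs are shorter than typical library fragments and carry no poly(A) tail, and reads that also touched a neighbouring gene are dropped by default, so these values do not measure the mature transfer RNA of the muscle.

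**Figure D1:**
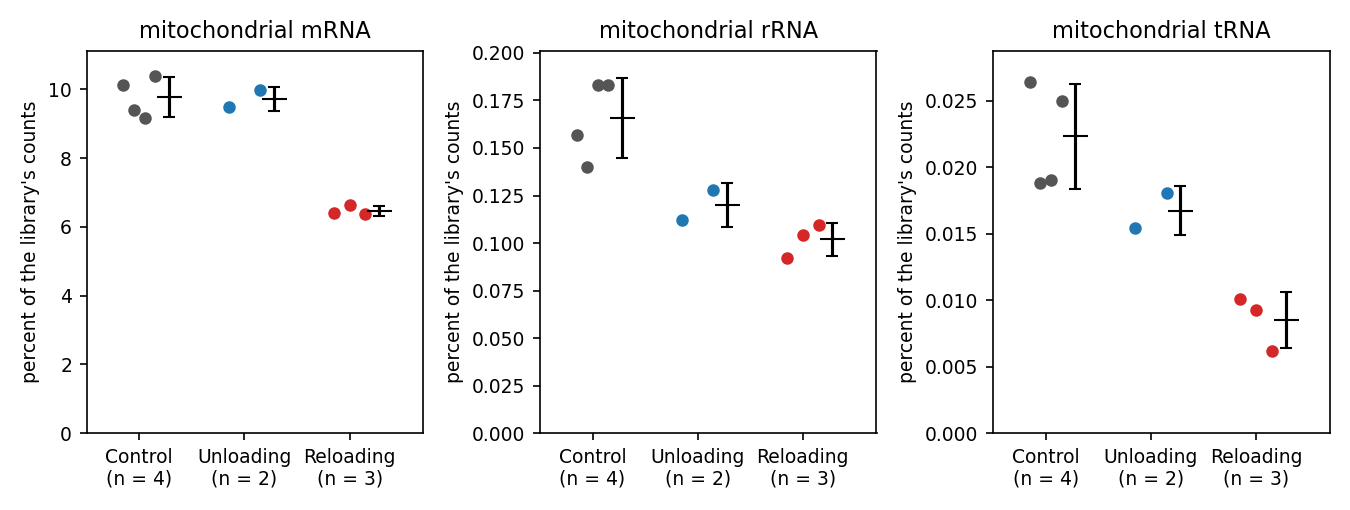
Share of all counts in percent (vertical axes) for mitochondrial mRNA, rRNA and tRNA genes, with 1 point per library and the mean with SD beside each group (4 Control, 2 Unloading and 3 Reloading libraries). For mRNA the Unloading points sit among the Control points and the Reloading points, 6.37% to 6.64%, sit below them, while for rRNA and tRNA the 3 groups step down without overlap.

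The classes also shifted against each other. For every 100 counts of mitochondrial mRNA there were 1.49 to 2.00 counts of ribosomal RNA in Control, 1.18 and 1.28 in Unloading, and 1.44 to 1.71 in Reloading. Unloading lay below both other groups, which overlapped each other. For every 1000 mRNA counts there were 2.00 to 2.60 transfer RNA counts in Control, 1.63 and 1.81 in Unloading, and 0.964 to 1.58 in Reloading, in groups that did not overlap.

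Per gene, counts were compared with edgeR's quasi-likelihood test after TMM scaling, and p-values were adjusted by Benjamini-Hochberg over all 14851 genes tested. Values per library are CPM on the same scaling. The 3 comparisons share libraries, so their results for the same gene are not independent of each other. TMM scaling and plain library totals differed by 0.25 on the log2 scale in Reloading against Unloading, by 0.24 in Reloading against Control and by -0.01 in Unloading against Control, since the factors of the Reloading libraries were higher.

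In Reloading against Unloading, 8 of 13 mitochondrial mRNAs, 1 of 2 ribosomal RNAs and 8 of 16 transfer RNAs were lower past an adjusted p of 0.05. In edgeR's test 0 were higher, and 0 were also higher by an unadjusted p under 0.05 or by DESeq2's Wald test. Of all genes tested, 19.0% were lower and 18.5% were higher in that comparison. The median log2 fold change was -0.76 over the 13 mRNAs and -0.80 over the 16 transfer RNAs, beside 0.03 over all genes. Without Control 2 and Reloading 1 the total was 16 mitochondrial genes in place of 17, and with library totals alone it was 13.

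mt-Nd6, a membrane subunit of complex I, had the lowest log2 fold change of the 13 mRNAs. Its level was 3086, 3070, 2703 and 3191 CPM in Control, 3424 and 3686 in Unloading, and 1648, 1513 and 1404 in Reloading. The Unloading libraries lay above every Control library and the Reloading libraries below. The log2 fold change for Reloading against Unloading was -1.22 (SE 0.0880, adjusted p = 1.52e-07).

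mt-Co1, the catalytic subunit of complex IV, was the most abundant mitochondrial mRNA. It stood at 36508, 32965, 33332 and 38429 CPM in Control, 33549 and 35349 in Unloading, and 19580, 19486 and 19712 in Reloading. Control and Unloading overlapped and Reloading lay below both, and its log2 value against Unloading was -0.81 (SE 0.0809, adjusted p = 3.45e-06). mt-Cytb, the only complex III subunit encoded by mtDNA, gave 18187, 18265, 17201 and 18953 CPM in Control, 17061 and 18699 in Unloading, and 10281, 10431 and 10390 in Reloading. Its log2 fold change against Unloading was -0.79 (SE 0.0739, adjusted p = 2.05e-06), again with Reloading apart from 2 groups that overlapped.

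Of the other complex I subunits outside the copied block, mt-Nd5 changed by -0.94 on the log2 scale (SE 0.0905, adjusted p = 2.62e-06), mt-Nd2 by -0.90 (SE 0.0972, adjusted p = 7.43e-06) and mt-Nd1 by -0.76 (SE 0.0904, adjusted p = 1.64e-05). mt-Nd4, another complex I subunit and partly inside the block, changed by -0.82 (SE 0.0811, adjusted p = 3.40e-06). Together with mt-Nd6, mt-Cytb and mt-Co1 these are all 7 mRNAs that lie outside or only partly inside the block, and all 7 were lower in Reloading than in Unloading.

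The 6 mRNAs of the copied block moved less. mt-Atp8, a small subunit of ATP synthase, was the only 1 of them past the threshold, with a log2 fold change of -0.39 (adjusted p = 0.00664), and its annotated bases overlap those of mt-Atp6 by 43. mt-Nd3 and mt-Atp6 had log2 fold changes of -0.36 (adjusted p = 0.0551) and -0.35 (adjusted p = 0.0617), and mt-Co2, mt-Co3 and mt-Nd4l had values of -0.12, -0.11 and 0.01. On library totals alone 0 of the 6 passed and the median of the 6 was 0.02 in place of -0.23, whereas the 5 mRNAs outside the block all stayed past the threshold with a median of -0.65 in place of -0.90. With single libraries left out, 0 to 3 of the 6 passed, and DESeq2's Wald test called 3.

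Unloading against Control gave a different set of called mRNAs. There 6 of 13 mRNAs, 2 of 2 ribosomal RNAs and 2 of 16 transfer RNAs were lower past the threshold and 0 were higher, where 5.50% of all genes tested were lower and 4.40% higher. The 6 mRNAs were those of the copied block, with a median log2 fold change of -0.60, and 0 of the 5 outside it passed, with a median of 0.09. Nuclear genes that share sequence with mt-Co1 or mt-Nd5 also had lower counts per library total in Unloading, as given with the copies below. Without Unloading 1 the total of 10 mitochondrial genes became 0, with 121 calls left among all genes and 8 lower and 1 higher mitochondrial genes at an unadjusted p under 0.05, and without Control 3 it became 6. DESeq2's Wald test called 11, of which 1, mt-Nd6, was higher.

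mt-Co2, the complex IV subunit that accepts electrons from cytochrome c, shows the pattern by library. It had 263, 272, 270.2 and 216 CPM in Control, 135 and 169 in Unloading, and 125, 162 and 134 in Reloading. Every Control library was above every other library, while Unloading and Reloading overlapped. The log2 fold change was -0.74 (adjusted p = 0.00255) in Unloading against Control and -0.12 (adjusted p = 0.485) in Reloading against Unloading.

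mt-Co3, the third mtDNA-encoded subunit of complex IV, had 246, 251, 265 and 189 CPM in Control, 128 and 151 in Unloading, and 112, 149.7 and 129 in Reloading. mt-Nd4l, the smallest complex I subunit encoded by mtDNA, had 53.9, 62.1, 62.9 and 57.5 CPM in Control, 32.4 and 42.2 in Unloading, and 36.4, 42.0 and 35.1 in Reloading. Both repeated the order of mt-Co2, with Unloading and Reloading overlapping below Control. For Unloading against Control the log2 fold change was -0.76 for mt-Co3 (adjusted p = 0.00341), -0.66 for mt-Nd4l (adjusted p = 0.00275), -0.53 for mt-Nd3 (adjusted p = 0.0199), -0.46 for mt-Atp6 (adjusted p = 0.0442) and -0.37 for mt-Atp8 (adjusted p = 0.0252). The calls of mt-Atp6 and mt-Atp8 were lost in 5 and 3 of the 9 fits that left out a single library, and those of the other 4 mRNAs of the block in 1 each, without Unloading 1.

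The 7 remaining mRNAs had log2 fold changes from -0.12 (mt-Nd1) to 0.24 (mt-Nd6) for Unloading against Control. mt-Nd6 was higher in both Unloading libraries than in any Control library, but edgeR gave an adjusted p of 0.0851, which missed the threshold, and DESeq2 gave 0.0474.

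Set against Control, Reloading had all 13 mRNAs and both ribosomal RNAs lower past the threshold, and 12 of 16 transfer RNAs as well, where 21.3% of all genes tested were lower and 22.1% higher. The 13 log2 fold changes ran from -0.65 for mt-Nd4l to -0.99 for mt-Nd6, with a median of -0.85 beside 0.01 over all genes. In all 13 every Reloading library lay below every Control library, and the share of all genes that did so is not given here. The median was -0.83 over the 6 mRNAs of the copied block and -0.85 over the 5 outside it. The total of 27 called mitochondrial genes was 26 without the 2 libraries that held skin transcripts and 25 on library totals alone.

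**Figure D2:**
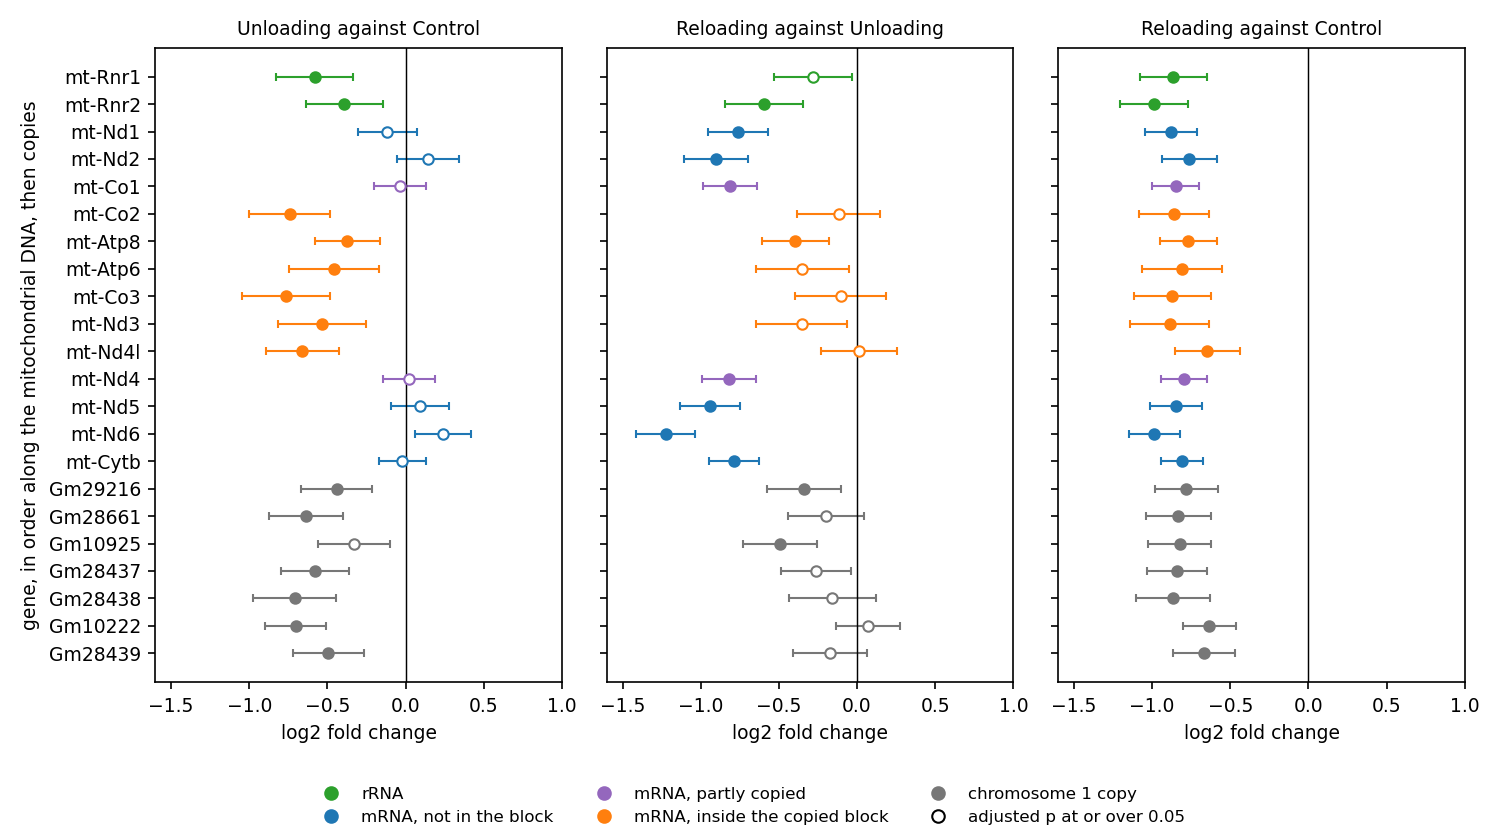
Log2 fold change (horizontal axis) with its 95% interval for the 2 mitochondrial rRNAs, the 13 mRNAs and the 7 chromosome 1 copies in each of the 3 comparisons (4 Control, 2 Unloading and 3 Reloading libraries), with filled points for adjusted p under 0.05 and open points for the others. The mRNAs outside the copied block are low in Reloading against Unloading and near 0 in Unloading against Control. The 6 inside it have a median of -0.60 in Unloading against Control and -0.23 in Reloading against Unloading. Of these, mt-Atp8 is about equally low in both, at -0.37 and -0.39.

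To compare the members with each other, the same test was run with each library scaled to its sum of the 13 mitochondrial mRNAs. Between Unloading and Reloading 3 mitochondrial genes were lower in Reloading on this scale (mt-Nd6, mt-Te and mt-Tn) and 8 were higher, where 0.566% of all genes tested were lower and 81.8% higher, since that scale takes the fall of mitochondrial mRNA as 0. With so many genes passing, adjustment changes p little, and an unadjusted p under 0.05 in edgeR's test gave the same 3 and 8. The 8 were the 6 mRNAs of the copied block, from 0.44 for mt-Atp8 to 0.86 for mt-Nd4l on the log2 scale, with mt-Rnr1 at 0.56 and the arginine transfer RNA mt-Tr at 1.10. Without Unloading 1, 5 genes were higher, 4 of them mRNAs of the block. mt-Tr had 109 counts over all 9 libraries and an adjusted p of 0.0403. That call was lost in 4 of the 9 fits that left out a single library. The CPM of mt-Tr overlapped between Unloading (0.747 and 0.709) and Reloading (0.885, 1.37 and 0.397).

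mt-Nd6 was the only mRNA lower past the threshold relative to the mitochondrial mRNA total after reloading, with a log2 fold change of -0.39 (adjusted p = 0.00134). It made up 2.82 to 3.09% of mitochondrial mRNA counts in Control, 3.43 and 3.45% in Unloading, and 2.44 to 2.88% in Reloading. The Unloading pair lay above both other groups, which overlapped. Per base of gene length, the level of mt-Nd6 was 79.4 to 89.5% of that of mt-Nd5, its neighbour on the opposite strand, in Control, 92.7 and 94.0% in Unloading and 72.0 to 80.7% in Reloading. Both genes share 14 annotated bases.

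Relative to the mRNA total, 7 mitochondrial genes were lower in Unloading against Control (mt-Co2, mt-Co3, mt-Nd3, mt-Nd4l, mt-Rnr1, mt-Tn and mt-Tc), where 3.71% of all genes were lower and 2.48% higher. By an unadjusted p under 0.05 in edgeR's test 11 were lower and 1 higher. Adjustment thus weighed more here than in the comparisons with Reloading, so their counts of calls are not at a like threshold. Without Unloading 1 this count was 0, with 9 lower at an unadjusted p under 0.05 in edgeR's test. Of the 9 fits that left out a single library, the call of mt-Tc was lost in 8 and that of mt-Nd3 in 3. In Reloading against Control 0 of 13 mRNAs passed, also by an unadjusted p under 0.05 in edgeR's test, and 4 transfer RNAs were lower (mt-Tn, mt-Tp, mt-Tc and mt-Te), where 0.848% of all genes were lower and 82.1% higher. The mRNA log2 fold changes on this scale ran from -0.15 to 0.18.

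Of the most abundant mRNAs, mt-Co1 took a mean of 34.2%, 33.3% and 33.9% of mitochondrial mRNA counts in Control, Unloading and Reloading, and mt-Cytb took 17.6%, 17.3% and 17.9%. The 7 complex I mRNAs together took 47.4% ± 0.729 (SD, n = 4), 48.8% ± 0.00664 (n = 2) and 47.4% ± 0.636 (n = 3), with both Unloading libraries above the other 7. mt-Nd1 took 12.8% ± 0.205 (n = 2) in Unloading, with both libraries below the Control range of 13.7 to 14.1%, while mt-Nd2, at 12.7 and 12.2%, lay above the Control range of 10.7 to 11.9%. No test was run on these shares. The 6 mRNAs of the copied block took only 0.958% ± 0.153, 0.623% ± 0.0474 and 0.955% ± 0.126.

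**Figure D3:**
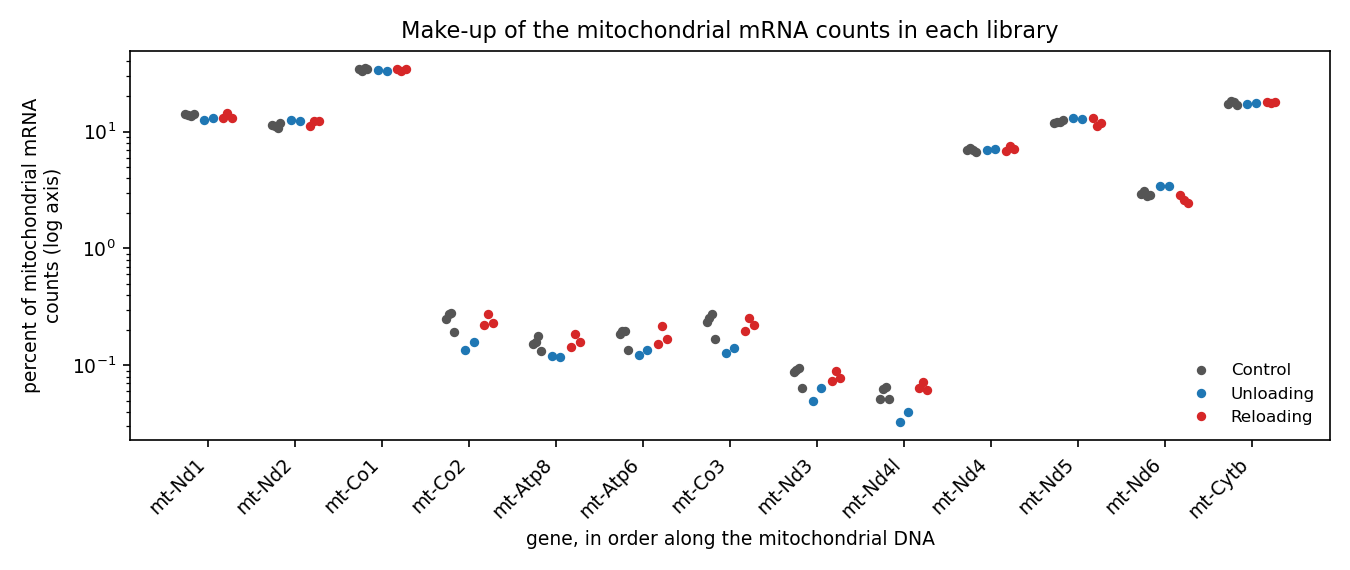
Percent of mitochondrial mRNA counts on a log10 axis for each of the 13 mRNAs in map order, with 1 point per library (4 Control, 2 Unloading and 3 Reloading libraries). The Unloading points are highest for mt-Nd6, at 3.43% and 3.45%, and lowest for several of the 6 mRNAs of the copied block.

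Compared per length on the CPM per kilobase scale, the order of levels in Control was mt-Co1 at 22853 ± 1695 (SD, n = 4), mt-Cytb at 15867 ± 631 and mt-Nd1 at 15029 ± 1202, and mt-Cytb and mt-Nd1 overlapped within these spreads. mt-Nd2, mt-Nd5, mt-Nd6 and mt-Nd4 followed at means of 11245, 6883, 5804 and 5199. mt-Atp8 stood at 784 and the 5 other mRNAs of the block between 199 and 373. How many reads of the block were dropped is not known from these counts, so how far these levels measure the abundance of the mRNAs was not tested.

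The 7 annotated copies on chromosome 1 (Gm28439, Gm10222, Gm28438, Gm28437, Gm10925, Gm28661 and Gm29216) held 0.217% ± 0.0168 (SD, n = 4) of counts in Control, 0.153% ± 0.0140 (n = 2) in Unloading and 0.148% ± 0.0218 (n = 3) in Reloading. For every 100 counts of the 6 mitochondrial mRNAs of the block there were 234 ± 9.50, 252 ± 5.19 and 239 ± 2.00 counts of the copies. Whether their reads came from nuclear or mitochondrial RNA cannot be told apart from these counts.

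In edgeR's quasi-likelihood test 6 of the 7 copies were lower in Unloading against Control, where 5.50% of all genes were. The log2 fold changes of all 7 ran from -0.71 to -0.33. In Reloading against Unloading 2 of 7 were lower (-0.49 to 0.07), where 19.0% of all genes were. On library totals 0 were lower and 1 higher there, where 7.36% of all genes were lower and 35.2% higher. In Reloading against Control 7 of 7 were lower (-0.87 to -0.63), where 21.3% of all genes were. Without Unloading 1 the count for Unloading against Control was 1. Gm10925, the copy of mt-Atp6, stood at 421 to 486 CPM in Control, 353 and 387 in Unloading, and 222 to 308 in Reloading, in groups that did not overlap. Adding the counts of each copy to its mitochondrial gene gave 18 called mitochondrial genes in place of 17 for Reloading against Unloading, 9 in place of 10 for Unloading against Control, and 27 as before for Reloading set against Control. After this addition 5 of the 6 block mRNAs were lower in Unloading against Control. The addition covered only the 7 copies and no other nuclear gene. Gm13340, a nuclear gene outside these copies, shares sequence with mt-Co1. It had 12621, 18721, 22127 and 15602 counts in Control and 12144 and 20251 in Unloading. Gm4076, which shares sequence with mt-Nd5, had 2367, 3941, 4142 and 2864 counts in Control and 2315 and 4039 in Unloading. Per library total, both were lower in each Unloading library than in any Control library. Lower counts in Unloading were thus not limited to the copied block, and this difference was not tested.

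Of the ribosomal RNAs, mt-Rnr1 (12S, of the small mitochondrial ribosomal subunit) had 581, 541, 698 and 709 CPM in Control, 379 and 465 in Unloading, and 324, 345 and 372 in Reloading. mt-Rnr2 (16S, of the large subunit) had 1053, 937, 1220.1 and 1262 CPM in Control, 800.4 and 904 in Unloading, and 501, 576 and 616 in Reloading. For both genes the 3 groups stepped down without overlap. For Unloading against Control the log2 fold change was -0.58 for mt-Rnr1 (adjusted p = 0.00617) and -0.39 for mt-Rnr2 (adjusted p = 0.0430). Of the 9 fits that left out a single library, the call of mt-Rnr1 was lost in 1, without Unloading 1, and that of mt-Rnr2 in 5, without Unloading 1, Unloading 2, Control 3, Control 4 or Reloading 2.

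After reloading, mt-Rnr2 was lower than in Unloading, at -0.60 on the log2 scale (SE 0.118, adjusted p = 0.00115), and mt-Rnr1 was at -0.28 (SE 0.118, adjusted p = 0.0733). The ratio of the pair moved accordingly, with 1.73 to 1.81 counts of mt-Rnr2 per count of mt-Rnr1 in Control, 2.11 and 1.94 in Unloading, and 1.54 to 1.67 in Reloading. Unloading was highest, Reloading lowest, and the 3 groups did not overlap. Both genes lie side by side on the plus strand, with the valine transfer RNA mt-Tv between them.

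Of the 22 transfer RNA genes, 16 passed the filter on low counts and 6 did not. The 6 held 0 to 27 counts in all 9 libraries, with 27 for mt-Tf, 13 for mt-Tt, 1 for mt-Ts1 and 0 for mt-Tv, mt-Td and mt-Tk. A count of 0 allows up to 0.164 to 0.338 CPM depending on the library, counting error only. mt-Tp, mt-Te, mt-Tn and mt-Tc together took 87.4 to 89.7% of transfer RNA counts in Control, 87.1% in both Unloading libraries and 76.7 to 85.9% in Reloading. All 4 lie on the minus strand. They are shown with mt-Ty, the minus-strand neighbour of mt-Tc, 5′ to 3′ as RNA-sense DNA with the anticodon in capitals.
mt-Tp (proline), MT:15356-15422, minus strand: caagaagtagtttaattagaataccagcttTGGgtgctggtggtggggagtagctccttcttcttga
mt-Te (glutamate), MT:14071-14139, minus strand: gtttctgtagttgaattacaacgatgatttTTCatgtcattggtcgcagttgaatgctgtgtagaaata
mt-Tn (asparagine), MT:5089-5159, minus strand: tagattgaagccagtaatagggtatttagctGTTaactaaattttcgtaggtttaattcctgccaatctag
mt-Tc (cysteine), MT:5192-5257, minus strand: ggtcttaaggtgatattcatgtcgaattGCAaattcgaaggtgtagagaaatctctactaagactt
mt-Ty (tyrosine), MT:5260-5326, minus strand: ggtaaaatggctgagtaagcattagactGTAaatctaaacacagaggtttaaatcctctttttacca
mt-Tn, mt-Tc and mt-Ty sit together in a cluster that opposes the plus-strand coding direction, mt-Te lies directly after mt-Nd6 on the map, and mt-Tp lies at the end of the gene-coding part of the circle, next to the non-coding control region. Since strand was not recorded, reads over these genes can also come from plus-strand precursors.

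mt-Te had 69.1, 34.2, 30.3 and 48.5 CPM in Control, 55.1 and 56.5 in Unloading, and 14.8, 12.3 and 17.7 in Reloading. Control and Unloading overlapped and Reloading lay below every other library. The log2 fold change was -1.90 (SE 0.251, adjusted p = 4.20e-05) for Reloading against Unloading, the lowest of all 31 tested mitochondrial genes, and 0.31 (adjusted p = 0.414) for Unloading against Control. Relative to the mitochondrial mRNA total it was -1.06 for Reloading against Unloading (adjusted p = 0.000316). Its counts per 1000 counts of the adjacent mt-Nd6 were 11.1 to 22.4 in Control, 16.1 and 15.3 in Unloading and 8.11 to 12.6 in Reloading.

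mt-Tn fell at both steps. It had 36.1, 29.1, 33.3 and 41.8 CPM in Control, 21.2 and 26.2 in Unloading, and 8.37, 8.16 and 10.6 in Reloading. The groups did not overlap, and the log2 fold change was -0.56 (adjusted p = 0.0216) for Unloading against Control, and in Reloading it was -1.39 against Unloading (SE 0.158, adjusted p = 1.13e-05) and -1.95 against Control. The last is the lowest of the 31 genes in that comparison. Relative to the mRNA total mt-Tn was lower in all 3 comparisons, at -0.56, -0.55 (adjusted p = 0.00263) and -1.11.

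mt-Tc had 16.4, 13.1, 15.8 and 13.3 CPM in Control, 8.82 and 11.2 in Unloading, and 4.18, 5.13 and 4.96 in Reloading. Its groups did not overlap either, with log2 fold changes of -0.54 (adjusted p = 0.0255) in Unloading against Control and -1.08 (adjusted p = 0.000111) in Reloading against Unloading. mt-Ty had 3.49, 3.72, 4.07 and 4.11 CPM in Control, 4.41 and 3.98 in Unloading, and 2.33, 2.24 and 2.38 in Reloading. Unlike mt-Tn and mt-Tc it overlapped between Control and Unloading, and its log2 fold change for Reloading against Unloading was -0.85 (adjusted p = 0.00198). The calls of mt-Tn and mt-Tc in Unloading against Control were lost without Unloading 1, when 0 of 16 transfer RNAs passed and 2 were lower at an unadjusted p under 0.05 in edgeR's test. The call of mt-Tc was also lost without Control 1 and without Control 3.

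mt-Tp was the most abundant transfer RNA gene and the most uneven between libraries. It had 124, 97.4, 99.6 and 136 CPM in Control, 56.3 and 74.3 in Unloading, and 50.3, 41.2 and 9.26 in Reloading, where Reloading 3 lay far below the other 2. The groups did not overlap, yet the log2 fold change of -0.98 for Reloading against Unloading had an SE of 0.387 and missed the threshold (adjusted p = 0.0593). The value was -0.52 without Reloading 3 and -1.39 without Reloading 1, and both of those passed.

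The other 4 transfer RNAs lower in Reloading than in Unloading were those for alanine (mt-Ta, log2 fold change -1.22), tryptophan (mt-Tw, -1.04), serine (mt-Ts2, a fold of 0.498) and methionine (mt-Tm, -0.76). Each had 101 to 381 counts over all libraries, and the number of called transfer RNAs fell from 8 to 4 without Unloading 2. The 7 besides mt-Tp that did not pass (mt-Tl1, mt-Ti, mt-Tq, mt-Tg, mt-Th, mt-Tl2 and mt-Tr) had log2 fold changes from -0.72 (mt-Tg) to 0.26 (mt-Tr). Against Control the 4 that did not pass in Reloading were mt-Tw (adjusted p = 0.0547), mt-Th, mt-Tl2 and mt-Tr. Of those that passed, mt-Tq (87 counts in total) and mt-Tg (203) lost their calls in 5 and 4 of the 9 fits that left out a single library.

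Minus-strand genes took 90.7 to 93.2% of transfer RNA counts in Control, 91.4 and 91.3% in Unloading, and 83.5 to 90.3% in Reloading. The Reloading libraries lay below the other 6, and the lowest was Reloading 3, the library with little mt-Tp.

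**Figure D4:**
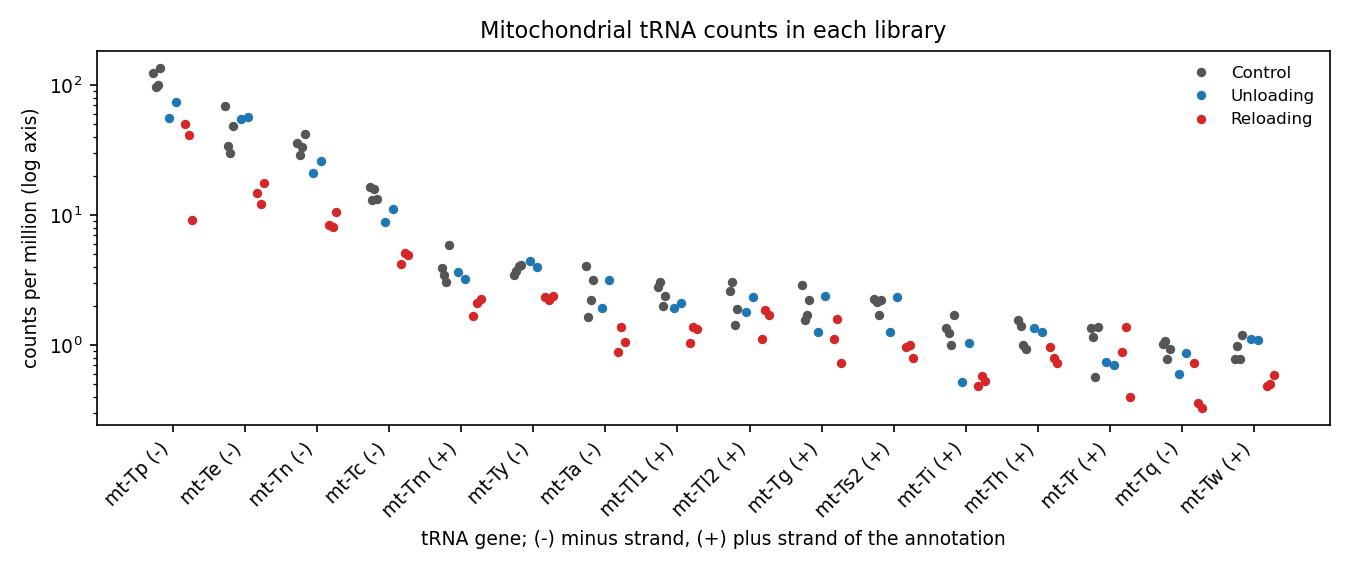
Normalised CPM on a log10 axis for the 16 transfer RNA genes tested, with 1 point per library (4 Control, 2 Unloading and 3 Reloading libraries) and the coding strand beside each name. Reloading points lie lowest for mt-Te, mt-Tn, mt-Tc and mt-Ty, and the separate low point of mt-Tp is Reloading 3 at 9.26.

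Nuclear genes for subunits of the same complexes were set beside the mitochondrial ones, 71 tested genes of complexes I, III, IV and V. In Unloading against Control 50 of the 71 were lower, where 5.50% of all genes were, and 0 higher (median log2 fold change -0.34), and 39 were lower without the 2 libraries that held skin transcripts. Without Unloading 1 only 2 passed, with 40 lower at an unadjusted p under 0.05. Between Unloading and Reloading 48 were lower in Reloading, where 19.0% of all genes were, and 0 higher (median -0.29). On library totals alone only 8 were lower and 2 higher, with a median of -0.04, where 7.36% of all genes were lower and 35.2% higher. Between Reloading and Control all 71 were lower in Reloading (median -0.62), where 21.3% of all genes were, and 67 were on library totals, where 10.0% of all genes were lower and 40.5% higher.

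Within each complex both genomes could be compared by their medians, a difference that was not tested. In Unloading against Control the mitochondrial median was 0.02 for complex I and -0.02 for complex III, beside nuclear medians of -0.32 and -0.36. It was -0.74 for complex IV and -0.42 for complex V, beside nuclear medians of -0.36 and -0.34. In complexes IV and V these medians rest on 3 and 2 mitochondrial genes, of which only mt-Co1 lies mainly outside the copied block.

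After reloading, set against Unloading, the mitochondrial medians were -0.82 and -0.79 for complexes I and III, beside nuclear medians of -0.28 and -0.36, and -0.12 and -0.37 for complexes IV and V, beside -0.36 and -0.27. Between Reloading and Control the mitochondrial medians ran from -0.79 to -0.86 and nuclear medians from -0.58 to -0.71. Complex II (succinate dehydrogenase), which has no mitochondrial subunit, had medians of -0.36, -0.14 and -0.57 over its 4 genes in Unloading against Control, Reloading against Unloading and Reloading against Control. In that order 4, 2 and 4 of them were lower, where 5.50%, 19.0% and 21.3% of all genes were.

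**Figure D5:**
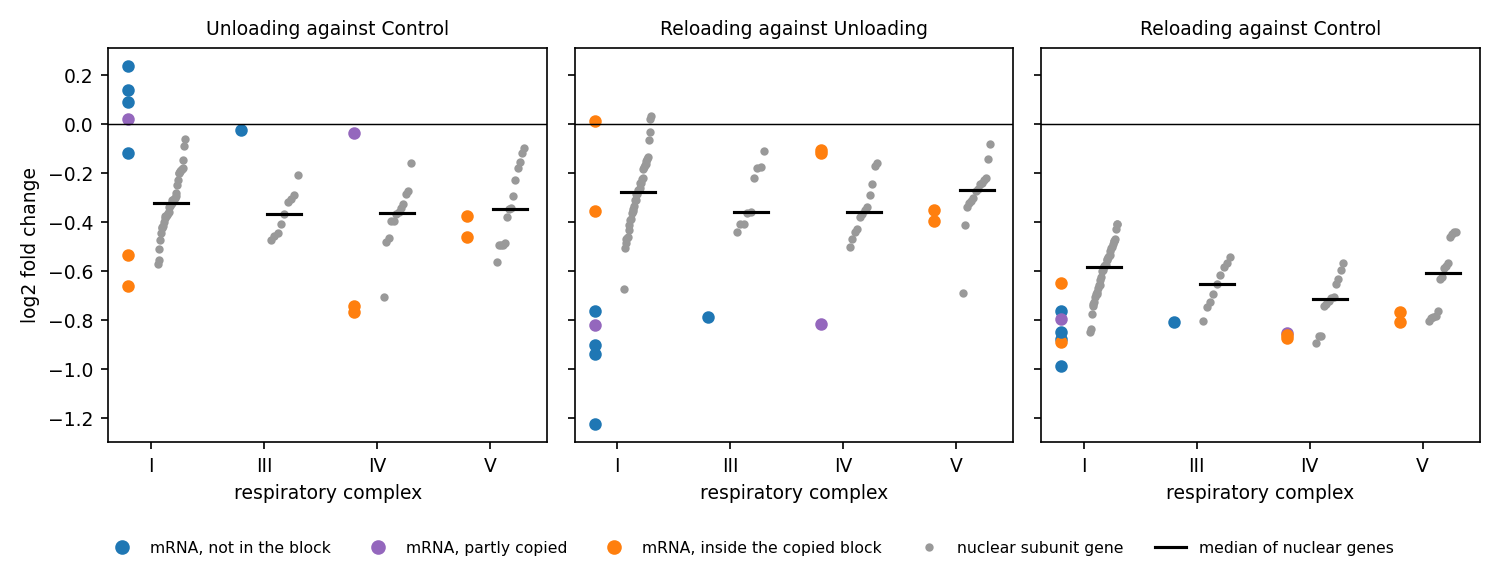
Log2 fold change (vertical axis) of each mitochondrial and nuclear subunit gene by respiratory complex in the 3 comparisons, with 1 point per gene, coloured by overlap with the copied block for mitochondrial genes, and a line at the median of the nuclear genes. In Unloading against Control the mitochondrial complex I median is 0.02 and the nuclear median -0.32, and in Reloading against Unloading they are -0.82 and -0.28.

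Nuclear genes for the upkeep and expression of mtDNA were taken from 5 lists of 110 symbols, of which 108 were tested. In Reloading against Unloading 16 were lower and 12 higher (median 0.01), in Unloading against Control 15 were lower and 1 higher (median -0.15), and in Reloading against Control 41 were lower and 9 higher (median -0.18). Over all genes 19.0% were lower and 18.5% higher in the first of these, 5.50% and 4.40% in the second, and 21.3% and 22.1% in the third. Without Unloading 1, 0 genes of any of the 5 lists passed in Unloading against Control, where 2 to 7 per list were lower at an unadjusted p under 0.05 in edgeR's test. The split for both Reloading comparisons depended on scaling. On library totals against Unloading, 0, 0, 2, 0 and 1 genes were lower and 5, 13, 11, 7 and 10 higher in the lists for transcription and mtDNA upkeep, RNA processing, RNA modification, aminoacyl-tRNA synthetases and translation, where TMM scaling gave 3, 4, 4, 3 and 2 lower and 2, 4, 4, 2 and 0 higher. Those totals also moved the median of all genes from 0.03 to 0.27, and 35.2% of all genes were then higher, so these counts are not read as particular to the lists.

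Named by the size of their change in Reloading against Unloading were 3 genes that rose and 3 that fell. Mrm1, which methylates the 16S ribosomal RNA, rose from 4.96 ± 0.152 CPM (SD, n = 2) in Unloading to 13.5 ± 0.969 (n = 3) in Reloading, with 8.11 ± 1.35 (n = 4) in Control, and the difference from Unloading was 1.44 on the log2 scale (SE 0.158, adjusted p = 8.89e-06). It was also the lowest named gene in Unloading against Control at -0.72 (adjusted p = 0.0113), next to Mrm2, another 16S methyltransferase, at -0.67 (adjusted p = 0.0258). Yrdc, which acts in the threonylcarbamoyl modification of transfer RNA, rose by 0.90 (adjusted p = 0.000618), and Pus1, a pseudouridine synthase, by 0.69 (adjusted p = 0.00101).

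At the other end, Osgepl1, the mitochondrial enzyme of the same threonylcarbamoyl modification as Yrdc, went from 26.4 ± 1.27 CPM in Unloading to 15.8 ± 1.17 in Reloading, beside 29.4 ± 2.19 in Control, and the log2 difference from Unloading was -0.74 (adjusted p = 7.40e-05). Nsun3, a methyltransferase of the methionine transfer RNA, had -0.64 (adjusted p = 0.00213), and Malsu1, which acts in assembly of the large ribosomal subunit, had -0.59 (adjusted p = 0.000519). In Reloading against Control the lowest were Mterf2 at -0.97 (adjusted p = 1.10e-05), Osgepl1 at -0.89 (adjusted p = 2.12e-06) and Gatb at -0.79 (adjusted p = 6.77e-05), while Yrdc, Mrm1 and Pus1 were again the highest, at 0.84, 0.72 and 0.64. In Unloading against Control the remaining named genes were Cdk5rap1 at -0.63 (adjusted p = 0.00754) and Nsun2 at 0.30 (adjusted p = 0.0304).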

How the data were processed

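Whole-number gene counts, deposited by the authors for 9 libraries of polyA RNA, came from STAR 2.7.3a and featureCounts 2.0.3 with GRCm38.p6 and Ensembl annotation 102, per the submitters' processing notes and the file headers. The header's command counts read pairs without strand and has no option for multi-mapping reads or reads over several genes, which are then dropped by default, whereas the methods describe single reads of 50 bases. The mean normalised signal deposited in the authors' DESeq2 tables served only to match gene names (33 mitochondrial genes named there), and their fold changes and p-values were not used. Labels give the mice as male, whereas the methods describe unloading of females. There were 0 unassigned sample columns.

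Counts were fitted in R 4.3.3 with edgeR 4.0.16 (filterByExpr, minimum count 10 and total 15, TMM, quasi-likelihood test, all 9 libraries, common biological coefficient of variation 0.0927). Of 34376 genes with a count, 14851 were tested. The relative fit used the sum of the 13 mitochondrial mRNAs as library size, without TMM. At 9252443 to 19612101 counts per library, 1 count was worth 0.0545 to 0.113 CPM. The code was tested on simulated data.

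All mitochondrial genes tested were named, with, for the nuclear lists, the 3 highest and 3 lowest log2 fold changes among genes past 0.05 and a mean log2 CPM of at least 2. Members and lists were chosen with earlier results of these data known. Alternatives were other scalings, DESeq2 1.42.0, other filters, a robust fit, replicate blocks and left-out libraries. Adding nuclear copies, the reference of 5 mRNAs and set counts under other settings were chosen after seeing the data. Sequences came from GENCODE M21, whose coordinates equalled those of the count table for 37 of 37 mitochondrial genes.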

Additional observations from a re-analysis of the deposited data

Results flagged for a closer look

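Control 4 stood apart from the other 3 Control libraries in 3 of 48 measures checked, by a rule that chance meets in about 1 in 20 groups. The chromosome 1 copies took 0.192% of its counts, against 0.223 to 0.228% in the others. mt-Co2 was at 216 CPM, against 263 to 272. mt-Nd3 was at 71.4 CPM, against 89.9 to 92.3. All 3 measures concern the copied block, and in each Control 4 was still above both Unloading libraries.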

How the results depend on the processing

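Of the comparisons of single genes, 2040 kept direction and side of the threshold, 103 lost and 39 gained a call and 35 changed sign, none of which had passed the threshold. With single libraries left out, 12 to 21 mitochondrial genes were called in Reloading against Unloading, 0 to 11 in Unloading against Control (0 without Unloading 1) and 25 to 27 in Reloading against Control. Relative to the mRNA total these ranges were 8 to 12, 0 to 9 and 4 to 5. On TMM-scaled totals the log2 ratio of shares for Reloading against Unloading was -0.84 for mRNA and -0.48 for rRNA, and for Reloading against Control -0.84 and -0.94. With the 10 most abundant nuclear genes left out, the mRNA ratio for Reloading against Unloading was -0.66.

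Replicate numbers were not taken to pair the libraries, since not every same-numbered pair correlated over 0.1. By title numbers same-numbered pairs correlated at -0.18 to 0.10 (1 of 7 over 0.1) and others at -0.20 to 0.32 (5 of 19). By description numbers they correlated at 0.04 to 0.32 (4 of 6 over 0.1) and others at -0.20 to 0.12 (2 of 20), and 7 of 9 libraries correlated best with their own number, a hint of pairing from the data and not from the design. The pair at 0.32 was Control 2 and Reloading 1, the 2 libraries that held skin transcripts. Deviations were taken from group means, so the 2 Unloading libraries correlate with any other library at equal values of opposite sign. A replicate block by title numbers called 17, 7 and 25 genes in Reloading against Unloading, Unloading against Control and Reloading against Control (11, 6 and 4 relative to the mRNA total), and a block by description numbers 16, 8 and 26, beside 17, 10 and 27 without a block.

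Signs changed as follows, on the log2 scale, and the causes were not tested. In Reloading against Unloading, library totals gave 0.13 for mt-Co2 and 0.14 for mt-Co3, and mt-Nd4l was at -0.0048 with DESeq2's size factors, -0.0039 with its Wald test, -0.015 with no filter and -0.094 with the block by description numbers. In Unloading against Control the block by description numbers gave 0.015 for mt-Ta and -0.16 for mt-Th, the block by title numbers gave 0.0010 for mt-Co1 and -0.15 for mt-Th, no filter gave 0.0017 for mt-Co1 and 0.016 for mt-Cytb, and leaving out the libraries with skin transcripts gave 0.14 for mt-Tl2. Leaving out single libraries changed signs within these ranges. In Reloading against Unloading they were -0.96 to 0.014 for mt-Ti, -0.27 to 0.045 for mt-Co2, -0.22 to 0.010 for mt-Co3, -0.22 to 0.64 for mt-Tr and -0.16 to 0.21 for mt-Nd4l. In Unloading against Control they were -0.48 to 0.23 for mt-Ta, -0.075 to 0.0081 for mt-Co1, -0.70 to 0.22 for mt-Tg, -0.050 to 0.092 for mt-Nd4, -0.0031 to 0.22 for mt-Th, -0.70 to 0.18 for mt-Ts2, -0.30 to 0.14 for mt-Tl2 and -0.091 to 0.046 for mt-Cytb. In Reloading against Control the range was -0.80 to 0.071 for mt-Tr. A minimum count of 50 left fewer transfer RNAs to test, and 12, 10 and 19 mitochondrial genes were then called. At this depth 6 of 22 transfer RNAs had too few counts to test.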
